A study of Homo sapiens with 4 samples.

Results

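Mitochondrial complex I was described through 45 nuclear genes of the 58243 genes in the expression tables of the series, 37 encoding subunits and 8 encoding assembly factors of the NDUFAF family. They were chosen by symbol: NDUF followed by A, B, C, S, V, AB or AF and a number, leaving out NDUFA4, whose product is now placed in complex IV. The 45 symbols matched 45 gene identifiers, all protein-coding, on 22 chromosomes.

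Complex I, the NADH:ubiquinone oxidoreductase, takes electrons from NADH, passes them through iron-sulfur clusters to ubiquinone and pumps protons across the inner mitochondrial membrane. Its catalytic core is built from subunits of both the nuclear and the mitochondrial genome, around which accessory subunits are added with the help of assembly factors that leave the finished enzyme. Proximal tubule cells rely heavily on oxidative phosphorylation, and the hypoxia-inducible factors are known to regulate several mitochondrial genes.

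The samples were HK2 cells, an immortalized line derived from human proximal tubule. FG-4592 (roxadustat) blocks the prolyl hydroxylases that mark HIF-α for destruction, and was given at 50 μM, dissolved in DMSO, for 6 h according to the methods. Transcript levels were measured by RNA-seq in 2 libraries, and HIF1α binding by ChIP-seq with an anti-HIF1α antibody in 2 peak lists. All 4 samples were labelled as treated, so no change with FG-4592 could be computed, and nothing says that replicates came from separate cultures.

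The cell type was checked against markers first. Of 10 proximal tubule markers, which summed to 186 and 174 FPKM, 3 reached 1 FPKM (fragments corrected for transcript length and library size, averaged over both libraries). The transcription factor PAX8 was at 121 and 114 FPKM, the brush border enzyme GGT1 at 62.3 and 58.5, and the glucose transporter SLC5A2 at 2.59 and 1.70. The other 7 were below 1 FPKM, and the endocytic receptor LRP2 and the regulator HNF4A were listed at 0 in both libraries. Among 4 epithelial genes KRT8 was at 166 and 162 FPKM, KRT18 at 47.5 and 48.0 and EPCAM at 39.0 and 45.5, with CDH1 at 0.211 and 0.379. By contrast, 0 of 7 markers of other kidney and blood cell types reached 1 FPKM, with CDH5 the most abundant at 0.0131 and 0 FPKM. The cells thus carried epithelial keratins and PAX8, while 7 of 10 proximal tubule markers were below 1 FPKM. An entry of 0 cannot be checked against reads here, and mitochondrially encoded genes are listed at 0 too.

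All 45 members had a mean of at least 1 FPKM, beside 59.7% of the 19658 protein-coding genes found in both annotations. Their median was 27.6 FPKM, 27.7 in library 1 and 28.3 in library 2, against 10.8 FPKM over the 11726 protein-coding genes that reached 1 FPKM. Of the members, 38 lay above that value. With the top transcript of each gene only, the members' median was 17.3 FPKM, a setting for which no value over other genes is given. Levels spanned 50.0-fold, from 5.26 FPKM for NDUFAF7 to 263 for NDUFS5. Together the members held 0.493% and 0.472% of all FPKM in libraries 1 and 2.

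**Figure D1:**
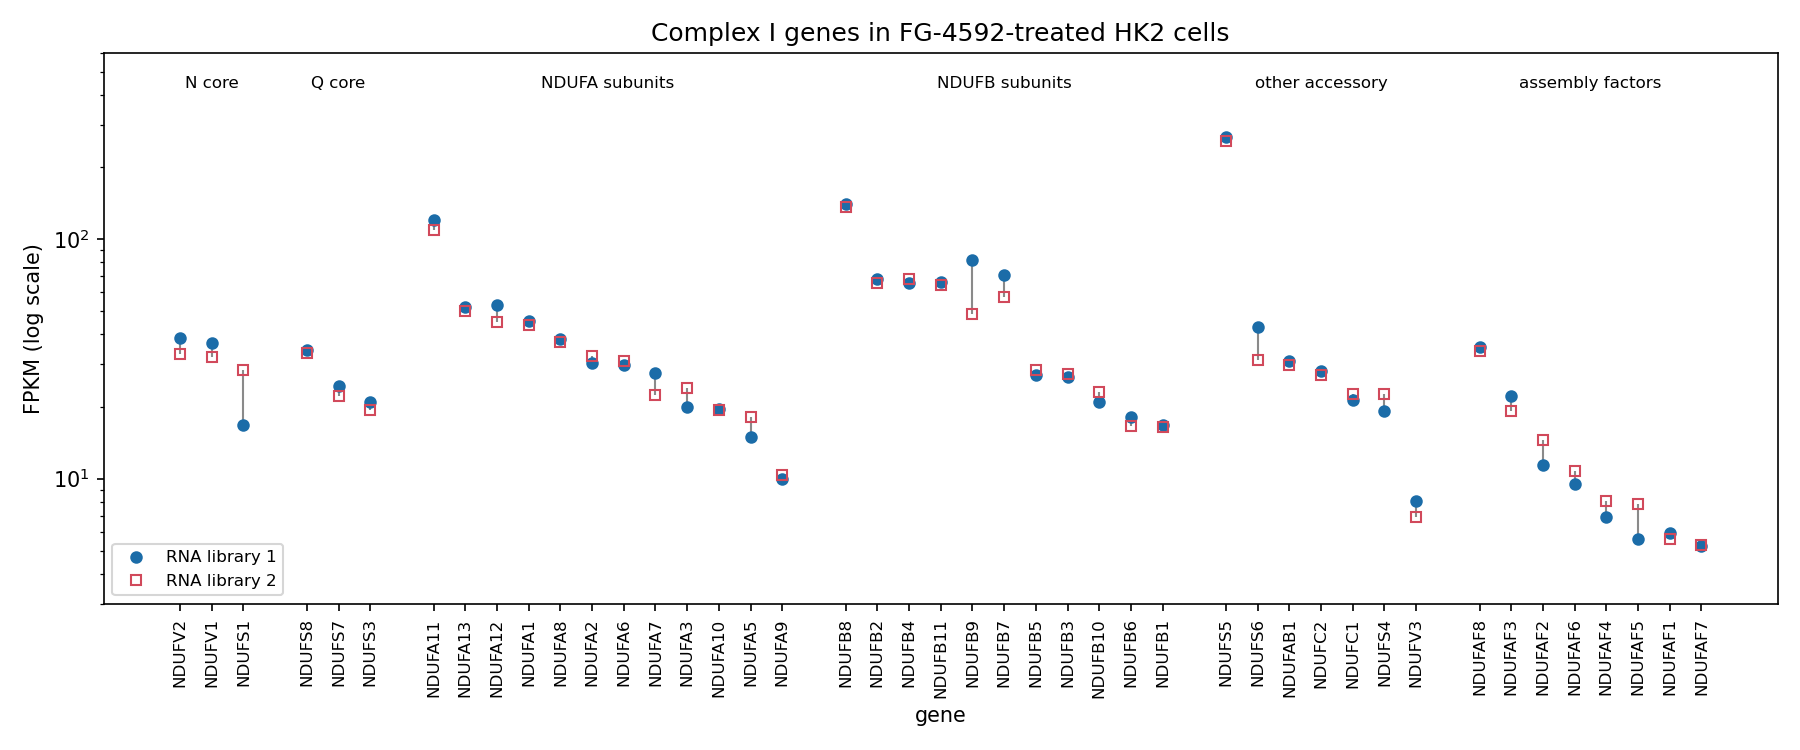
FPKM of complex I genes in RNA library 1 (filled circles) and RNA library 2 (open squares) on a log axis, grouped by role and joined by a grey line. NDUFS5 lies highest, the NDUFAF factors mostly lowest, and NDUFS1 and NDUFB9 show the widest gaps between libraries.

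The nuclear core subunits belong to 2 modules. In the N module, where NADH is oxidized, the flavoprotein NDUFV1 was at 36.9 and 32.1 FPKM and its partner NDUFV2 at 38.8 and 33.3. NDUFS1, which carries several of the iron-sulfur clusters, was at 16.7 and 28.3. Among these 3 the libraries of NDUFS1 stood furthest apart.

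In the Q module, where ubiquinone is reduced, NDUFS8 was at 34.4 and 33.4 FPKM. NDUFS7 was at 24.5 and 22.0 FPKM, and NDUFS3 at 20.9 and 19.4. The mean of NDUFS8 was 1.68 times that of NDUFS3.

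Accessory subunits surround the core. The 12 NDUFA genes had a median of 31.0 FPKM, and the 11 NDUFB genes, whose products sit in the membrane arm, had one of 64.3, with 65.7 in library 1 and 48.7 in library 2. The middle gene of the family was NDUFB4 in library 1 and NDUFB9 in library 2. NDUFA11 was at 120.4 and 109 FPKM and NDUFB8 at 140.1 and 137. NDUFB2 was at 68.2 and 65.8 FPKM, and NDUFB4 at 65.7 and 68.0.

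The highest member was NDUFS5, an accessory subunit of the membrane arm, at 269 and 257.5 FPKM, which ranked 156 among the 19658 protein-coding genes. NDUFV3, an accessory subunit of the N module, was at 8.02 and 6.93 FPKM and was the lowest of the subunits. Across members, level and length of the leading transcript had a Spearman correlation of -0.34 (45 genes, which share libraries and are not independent replicates). Over the 11726 protein-coding genes it was -0.15.

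Assembly factors were lower, with a median of 8.81 FPKM over 8 genes against 30.4 over the 37 subunits. NDUFAF8 was the highest of them, at 35.5 and 34.1 FPKM, followed by NDUFAF3 at 22.2 and 19.1. NDUFAF2 was at 11.4 and 14.5 FPKM, and NDUFAF6 at 9.49 and 10.8. The other 4 lay below 10 FPKM in both libraries.

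Of those, NDUFAF4 was at 6.91 and 8.08 FPKM and NDUFAF5, which hydroxylates NDUFS7, at 5.61 and 7.79. NDUFAF1, needed for the membrane arm intermediate, was at 5.93 and 5.57 FPKM. NDUFAF7, a mitochondrial methyltransferase, was at 5.24 and 5.29. Complex I assembly factors with other names also lay below the subunits: 11 such genes had a median of 11.2 FPKM, near the 10.8 of expressed protein-coding genes, with ACAD9 highest at 25.1 and 23.3.

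The other respiratory complexes gave the scale. Median FPKM was 36.6 over 4 genes of complex II, 49.7 over 9 of complex III, 85.8 over 11 of complex IV and 65.7 over 15 of complex V. These lists were written by hand and differ in size, so the medians are a description. The 7 mitochondrially encoded complex I genes were each listed at 0 in both libraries, and the tables do not say whether they were estimated, so these entries are not read as levels. The mitochondrial chromosome held 7 peaks in replicate 2 and 0 in replicate 1, and each of the 7 genes had one within 1 kb of a start.

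Replicate spread was small for most members. The log2 ratio of library 2 to library 1, on FPKM + 1, had a median absolute value of 0.10 over all 45 members, whatever their level. That value was also 0.10 over the 6160 protein-coding genes with a mean of at least 10 FPKM. Of the 40 members at that level, 2 differed by more than 1.5-fold between libraries in either direction, beside 3.18% of those genes. They were NDUFS1 and NDUFB9. With the top transcript of each gene only, the median absolute log2 ratio over members was larger, at 0.19.

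FPKM divides by the length of the transcript to which reads were assigned, so a length-free measure was set beside it: coverage times length, in ppm of all covered bases. NDUFS1 was 1.69-fold higher in library 2 by FPKM but 1.08-fold by covered bases, 109 against 118 ppm. Its reads were spread over different transcripts: a 2394-base transcript was at 0.728 and 24.0 FPKM, a 2080-base one at 9.40 and 0, and an 11819-base one at 5.52 and 3.08. The FPKM gap of NDUFS1 therefore came with a different assignment of similar coverage.

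NDUFB9, an accessory subunit of the membrane arm, behaved otherwise. It was at 81.6 and 48.7 FPKM, and its covered bases were 73.0 and 42.8 ppm, so both measures differed. It was the 1 member more than 1.5-fold apart by covered bases, 2.50% of the 40 at 10 FPKM or more, beside 2.92% of protein-coding genes at that level. With 2 libraries of 1 condition, the source of that difference was not tested.

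**Figure D2:**
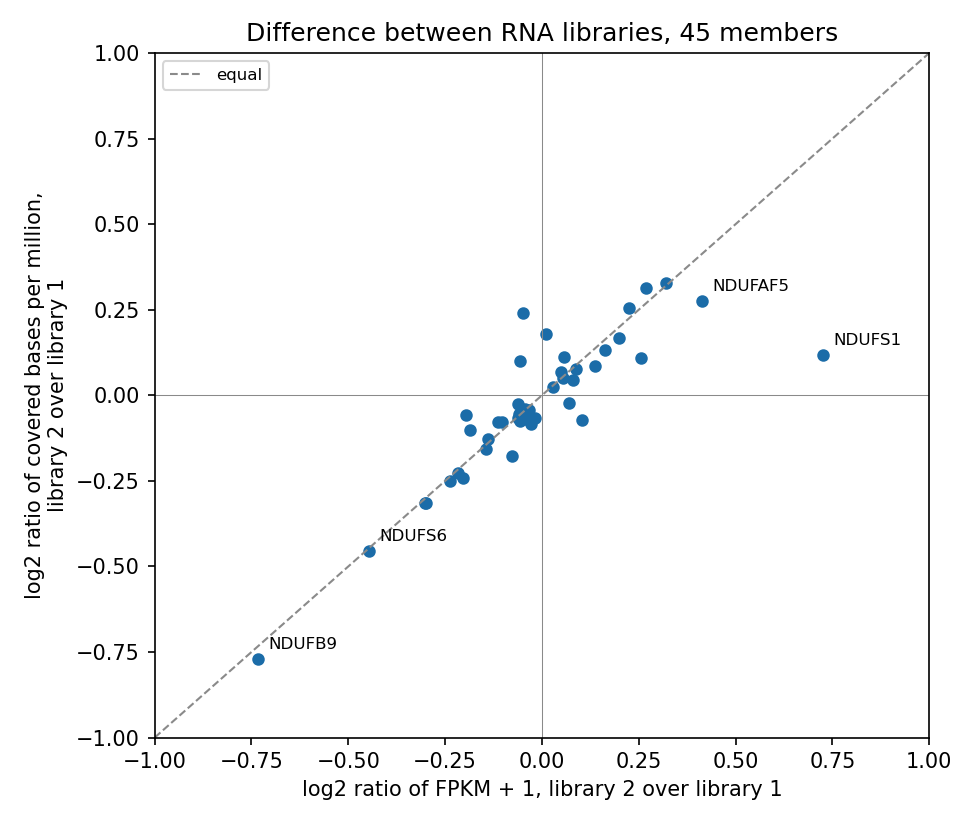
Log2 ratio of library 2 to library 1 for 45 members, by FPKM + 1 on the x axis and by covered bases in ppm on the y axis, with a dashed line of equality. NDUFB9 lies on the line at -0.73 and -0.77, whereas NDUFS1 lies off it at 0.73 and 0.12.

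Some members share sequence with other transcribed genes. Exon bases of 17 members (37.8%) overlapped another gene with a mean of at least 1 FPKM, beside 27.3% of protein-coding genes at that level, and reads there may be divided between both. The largest such neighbour was RPS28, at 171 and 157 FPKM, which shares 68 exon bases with NDUFA7, itself at 27.7 and 22.3. Of 57 pseudogenes named after NDUF genes, 0 reached 1 FPKM and 40 were listed at 0 in both libraries.

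Further overlapped members follow in order of level. NDUFB11 was at 66.6 and 64.6 FPKM, NDUFA13 at 52.3 and 50.2, and NDUFA2 at 30.5 and 32.5. NDUFB3 was at 26.7 and 27.2 FPKM, NDUFA3 at 20.0 and 24.0, and NDUFB6 at 18.1 and 16.6. Each has exon bases in common with a gene on one or the other strand.

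A feature the selection did not use was gene arrangement. A protein-coding gene started within 1 kb upstream on the opposite strand for 25 of 45 members (55.6%), beside 22.0% of protein-coding genes at 1 FPKM or more. The distance was 7 bp for NDUFB9 and TATDN1, 26 for NDUFC1 and NAA15, and 41 for both NDUFB5 with MRPL47 and NDUFS6 with MRPL36, the last 2 neighbours encoding mitochondrial ribosomal proteins. This comparison was chosen after the data were seen and was not tested.

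HIF1α peaks were counted at a gene when they overlapped 1 kb either side of any annotated start site (GRCh37, hg19). Replicate 1 listed 1689 peaks and replicate 2 listed 16953. In replicate 1, 4 of 45 members had such a peak (8.89%): NDUFB8, NDUFAF8, NDUFC1 and NDUFA1. That share was near the 8.60% of protein-coding genes at 1 FPKM or more, with 5.49% over all protein-coding genes, 10.5% at 10 FPKM and 14.1% at 50 FPKM.

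In replicate 2, 5 of 45 members had a promoter peak (11.1%): NDUFA1, NDUFA10, NDUFB11, NDUFC2 and NDUFV1. Over protein-coding genes the share was 14.0%, and it was 20.0% at 1 FPKM or more, 27.9% at 10 and 43.0% at 50. At 10 FPKM or more, 5 of 40 members (12.5%) had one, below the share over all genes at that level. The difference depended on the setting. Against genes at 1 FPKM or more, the members' share was lower within 250 bp (8.89% against 14.0%), within 3 kb (26.7% against 32.1%) and by peak centre (11.1% against 17.6%). It was 6.67% against 7.56% with the outermost start site only, and 53.3% against 50.3% within 10 kb. No test was made of it.

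NDUFA1 was the 1 member with a peak in both lists (2.22%), beside 1.79% of all protein-coding genes, 2.87% at 1 FPKM, 4.11% at 10 and 7.97% at 50. Its peaks overlapped each other. Known HIF-linked mitochondrial genes gave the contrast: LONP1, PDK1 and BNIP3 each had a promoter peak in both lists, with BNIP3 at 280 and 297 FPKM, whereas NDUFA4L2 and COX4I2 had none and were below 1 FPKM. Among 6 regulators of mitochondrial biogenesis, YY1 had a peak in both lists, NRF1 in replicate 1 only and GABPA in replicate 2 only, at 27.9 and 27.7, 7.39 and 7.06, and 6.80 and 7.58 FPKM.

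**Figure D3:**
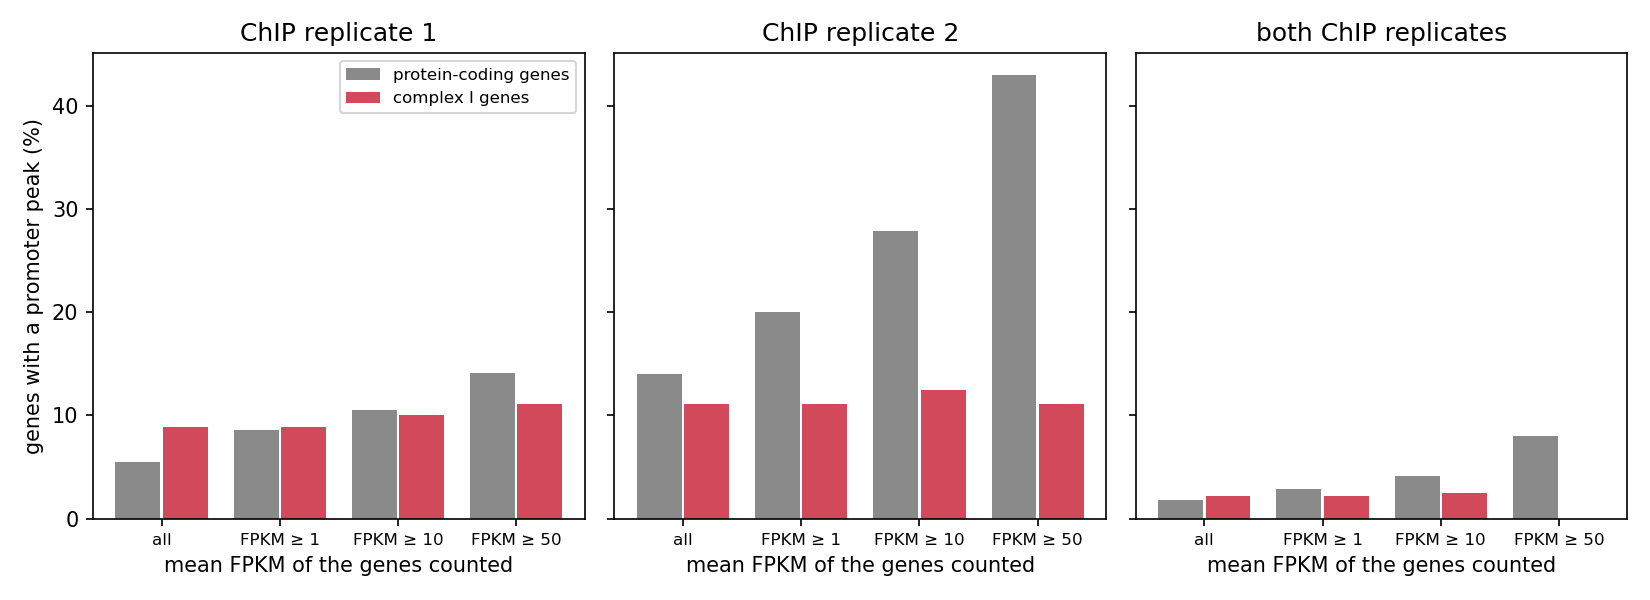
Percent of genes with a HIF1α promoter peak in replicate 1, replicate 2 and both, for complex I genes (red) and protein-coding genes (grey), by minimum mean FPKM. The grey bars of replicate 2 rise from 14.0% to 43.0%, and the red bars lie between 11.1% and 12.5%, with the last of them 1 of 9 genes.

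The 4 members of replicate 1 are shown by their genomic sequence, since a HIF core motif lay 4 to 25 bp from the centre of each peak. Each line gives up to 60 bases either side of that ACGTG or GCGTG core (GRCh37, direction of the gene), cut short where annotated untranslated bases would pass 30, with cores on either strand in capitals.
NDUFB8, chr10:102289664-102289693: ggcttcctccgtCACGTttggcccggctca
NDUFAF8, chr17:79213290-79213410: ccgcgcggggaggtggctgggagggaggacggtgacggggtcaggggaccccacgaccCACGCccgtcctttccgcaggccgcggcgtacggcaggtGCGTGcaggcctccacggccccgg
NDUFC1, chr4:140217049-140217078: cgtgctggaattCACGTtgacgcccccacg
NDUFA1, chrX:119004816-119004936: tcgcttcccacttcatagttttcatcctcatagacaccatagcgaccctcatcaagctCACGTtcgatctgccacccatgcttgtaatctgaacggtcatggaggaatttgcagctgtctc

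The NDUFB8 peak, chr10:102289493-102289837, was centred 25 bp upstream of the nearest start site, in an exon of another NDUFB8 transcript, and held 3 cores. A gene without a symbol in the annotation starts 27 bp from that centre. An outermost annotated start of HIF1AN, which encodes the asparaginyl hydroxylase FIH, also lies within 1 kb on the opposite strand. The NDUFAF8 peak, chr17:79213189-79213491, was centred 71 bp upstream in an intron of an alternative transcript and held 3 cores, with a start of TEPSIN 449 bp away. The peak alone does not say which of the neighbours it belongs to.

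The NDUFC1 peak, chr4:140216901-140217235, was centred 99 bp upstream of one start and within an exon of another NDUFC1 transcript, with 2 cores. That start is an inner one of the 8 annotated for NDUFC1. The peak lies inside the gene, whose outermost start is at position 140223705, more than 1 kb away. NDUFC1 was at 21.3 and 22.6 FPKM. The NDUFA1 peak, chrX:119004734-119004968, was centred 944 bp upstream, inside an exon of the divergent gene RNF113A, and held 1 core. NDUFA1 was at 45.4 and 43.7 FPKM and RNF113A at 10.3 and 8.88.

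In replicate 2, 2 of the 5 peaks also spanned a start site. These peaks at NDUFB11, chrX:47003835-47004101, and NDUFC2, chr11:77790618-77790895, were centred 119 and 109 bp downstream of a start in exons of those genes and held 0 cores. Other genes start near these centres too: RBM10 at 652 bp from that of NDUFB11, the readthrough gene NDUFC2-KCTD14 at 63 bp from that of NDUFC2, which lies in an exon of both, and NDUFV1-DT at 827 bp from that of NDUFV1. The NDUFV1 peak, chr11:67374808-67375200, was centred 572 bp downstream of one start in an exon. The NDUFA10 peak, chr2:240951262-240951902, was centred 505 bp upstream of one start in an exon of another transcript. Each held 1 core. Both were counted through inner starts, of 18 annotated for NDUFV1 and 17 for NDUFA10. They lie inside the genes, whose outermost starts are at positions 67373124 and 240965160, more than 1 kb away. The NDUFA1 peak, chrX:119004722-119005564, spanned that of replicate 1 and held 3 cores.

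**Figure D4:**
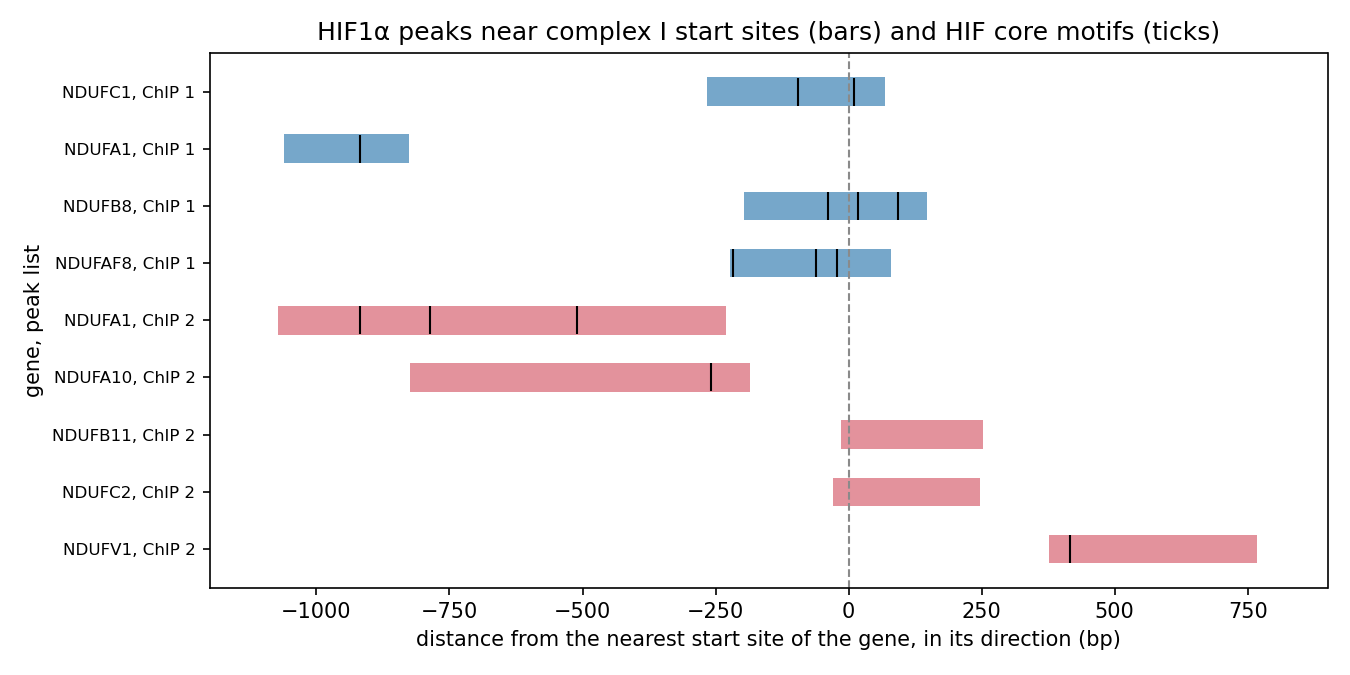
Extent of the 9 HIF1α peaks near complex I start sites, in bp from the nearest start in the direction of the gene, for ChIP replicate 1 (blue) and replicate 2 (red), with ACGTG or GCGTG cores as ticks. Replicate 1 peaks at NDUFC1, NDUFB8 and NDUFAF8 and replicate 2 peaks at NDUFB11 and NDUFC2 span a start site, and both NDUFA1 peaks lie upstream.

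Over all promoter peaks, 95.9% of 1075 in replicate 1 and 54.9% of 6075 in replicate 2 held a core, as did 4 of 4 and 3 of 5 at members. The share of peak bases in annotated exons was 47.5% in replicate 1 and 90.4% in replicate 2, and at members it was 71.1% and 95.0%. When only exons of the member itself were counted, the share at members was 51.8% and 60.2%. Promoter peaks of replicate 2 thus lay mostly in exons. The share of genes with a promoter peak rose with expression in both lists, and whether transcript level had a part in the peaks was not tested.

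Replicate 2 peaks were also counted over whole genes. Of the 40 members at 10 FPKM or more, 13 (32.5%) had a peak anywhere within the exons or introns, beside 67.3% of the protein-coding genes at that level. Replicate 2 peaks covered 2.98% of their exon bases against 13.4%. These members are shorter, with a median of 2592 exon bases against 5187, and the part of length in the difference was not tested.

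Promoter sequences from RefSeq (GRCh38.p14), 250 bases before and 50 from each start, were found for 39 of the 45 members, as 51 sequences. The other 6 had no entry, NDUFS5 and NDUFB9 among them. A gene was counted when any of its listed promoters held a motif on either strand. The HIF core ACGTG or GCGTG occurred in 28 of 39 members (71.8%), beside 52.4% of all 27305 genes and 71.4% of 9314 protein-coding genes at 1 FPKM or more, so members did not stand above expressed genes.

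Motifs of nuclear respiratory factor 1 occurred in a larger share of members than of expressed genes, a difference that was not tested. TGCGCA occurred in 12 of 39 members (30.8%) beside 9.76% of all genes and 16.6% of expressed ones. The longer GCGCATGC, which can overlap it, occurred in 8 (20.5%) beside 3.68% and 6.60%. AAGATGGCG, a YY1 motif that often contains the start codon, occurred in 7 (17.9%) beside 2.14% and 5.01%, whereas the ETS motif CCGGAAG occurred in 7 (17.9%) beside 12.2% and 23.4%. A match is a description of the letters and not of binding.

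**Figure D5:**
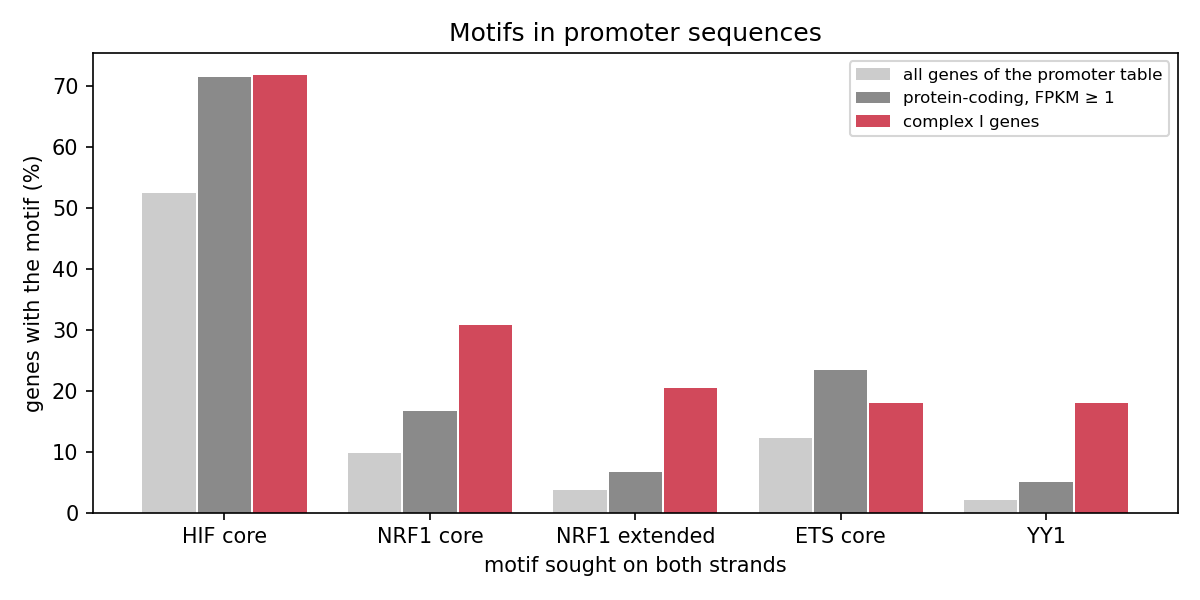
Percent of genes with each motif on either strand of any listed promoter, for all genes of the table (light grey), protein-coding genes at 1 FPKM or more (dark grey) and complex I genes (red). HIF core is ACGTG or GCGTG, NRF1 core TGCGCA, NRF1 extended GCGCATGC, ETS core CCGGAAG and YY1 AAGATGGCG.

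These 3 promoters show how the motifs lie, with TGCGCA, GCGCATGC and AAGATGGCG on either strand in capitals (GRCh38.p14, direction of the gene, cut to 30 bases from the start).
NDUFA8, chr9:122159750-122160029: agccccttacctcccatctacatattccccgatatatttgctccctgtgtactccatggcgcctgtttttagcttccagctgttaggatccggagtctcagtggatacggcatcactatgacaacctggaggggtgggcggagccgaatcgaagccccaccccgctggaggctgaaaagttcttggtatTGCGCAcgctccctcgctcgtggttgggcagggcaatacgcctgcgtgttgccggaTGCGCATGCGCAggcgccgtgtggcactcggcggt
NDUFB4, chr3:120596086-120596365: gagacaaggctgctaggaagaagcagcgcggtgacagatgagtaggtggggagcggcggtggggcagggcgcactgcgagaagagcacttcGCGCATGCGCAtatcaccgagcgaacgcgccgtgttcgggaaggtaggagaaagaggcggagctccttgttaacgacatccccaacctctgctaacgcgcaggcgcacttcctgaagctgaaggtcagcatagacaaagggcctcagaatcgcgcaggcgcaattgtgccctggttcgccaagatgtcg
NDUFS7, chr19:1383657-1383936: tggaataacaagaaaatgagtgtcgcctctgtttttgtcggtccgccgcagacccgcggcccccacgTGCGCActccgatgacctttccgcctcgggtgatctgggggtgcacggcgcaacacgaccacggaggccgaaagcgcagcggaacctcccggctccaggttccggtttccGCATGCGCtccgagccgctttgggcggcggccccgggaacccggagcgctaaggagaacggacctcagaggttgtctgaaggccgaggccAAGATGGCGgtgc
In NDUFA8, at 38.3 and 37.2 FPKM, and in NDUFB4, TGCGCA and GCGCATGC overlap each other. NDUFA8 also holds a TGCGCA further upstream that lies apart from the overlapping ones. NDUFS7 carries 1 of each of the 3 motifs, apart from each other. Median GC content was 61.3% over members, 58.3% over all genes and 65.3% over expressed ones. The median ratio of observed to expected CpG was 0.837 over members, 0.563 over all genes and 0.830 over expressed ones, and TGCGCA contains a CpG. The part of base composition in the motif shares was not tested.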

How the data were processed

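RNA-seq reads were mapped with HISAT2 and quantified by the authors with StringTie 1.3.3 on GENCODE 27 without assembly of new transcripts, per the file headers, whereas the methods speak of transcript assembly. The methods name hg19, but transcript positions are those of GRCh38. The deposited values are coverage, FPKM and TPM per transcript, and were summed per gene here. Covered bases, coverage times length, came to 4442 and 4202 Mb. Read counts were not used here, so depth in reads is unknown. ChIP-seq reads were aligned by the authors to hg19 with Bowtie2, and peaks called with MACS2 in each replicate, with no threshold or control named in the methods. The deposited lists hold positions with no score. Peaks were matched by gene to start sites of GENCODE 44 mapped to GRCh37, with Python 3.11.15, pandas 2.3.3, numpy 2.4.6 and pysam 0.24.0. Peak lookup and motif search were tested on simulated data.

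Members and lists were chosen with earlier results of these data known. Values in each library are given for the 5 highest and 5 lowest members, core subunits, all NDUFAF factors, members with a replicate 1 peak or peaks in both lists, members over 1.5-fold apart between libraries, and members with an overlapping gene or pseudogene at 1 FPKM. The 10 FPKM level, covered bases, divergent starts, gene-body peaks, the share of genes with overlapped exons, expressed promoters and the count over any listed promoter were added after the data were seen. The motif count first kept only the first listed promoter of a gene, through a step that removed repeats. It was changed after its result was seen, because the table lists several promoters for some genes, and both counts are given. NDUFA8, members with a peak in replicate 2 only, and neighbouring genes were named after their values were seen. The values of 1 member are not reported here, although it stays in the counts and medians. No test was made, since all samples share 1 condition.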

Additional observations from a re-analysis of the deposited data

How the results depend on the processing

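Of 43 alternatives tried on the main results, 26 left the value the same or within its limit and 17 moved it. The median level was 76.2 in TPM, 17.3 FPKM with the top transcript of each gene only and 30.4 FPKM over subunits only, and 27.7 to 28.3 FPKM with either library left out. The median absolute log2 ratio was 0.11 with a pseudocount of 0.1 and 0.19 with the top transcript only. Levels of single members also depended on that choice, to different degrees. With the top transcript only, the mean of NDUFAF7 was 1.16 instead of 5.26 FPKM and that of NDUFC1 5.56 instead of 21.9. NDUFA1 stayed at 44.6 FPKM.

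Promoter peaks of replicate 2 were found at 12 members with a window of 3 kb (26.7%, against 32.1% of protein-coding genes at 1 FPKM or more), 24 with 10 kb (53.3% against 50.3%) and 3 with the outermost start site only (6.67% against 7.56%), so the lower share of members at 1 kb did not hold at every setting. These backgrounds were added after the data were seen. Peaks in both lists were found at 0 members with 250 bp (0.00% against 2.05%), 2 with 3 kb (4.44% against 4.21%) and 3 with 10 kb (6.67% against 7.57%), and a single list gave 4 to 5. Replicate 1 gave 3 to 5 members under every window and start-site setting tried, near the share of protein-coding genes at 1 FPKM or more (6.67% against 7.24% with 250 bp, 8.89% against 9.47% with 3 kb, 11.1% against 11.8% with 10 kb and 6.67% against 6.80% with the outermost start site). Counting exons of the member only, the exon share was 51.8% in replicate 1 and 60.2% in replicate 2. The HIF core was found in 18 members on the gene strand only (46.2%, below the 53.1% of expressed genes). With the first listed promoter only, as in the first run of the script, the counts were 25 for the HIF core (64.1% against 64.5% of expressed genes), 12 for TGCGCA (30.8% against 14.1%), 7 for GCGCATGC (17.9% against 5.74%), 6 for CCGGAAG (15.4% against 20.3%) and 5 for AAGATGGCG (12.8% against 4.23%).

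No paired analysis was possible because no groups were compared and no result comes from a test. With 2 samples of each kind, the spread between replicates is poorly known, and peak lists without scores allow no stricter threshold.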
